A study of Mus musculus with 6 samples.

Results

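Metallothioneins are small, cysteine-rich proteins that bind zinc and copper and buffer the free metal inside cells. Zinc is sensed by the zinc finger transcription factor MTF1, which binds metal response elements in promoters. Its known target genes include those of metallothioneins 1 and 2 and of the zinc exporter ZnT1. Metallothionein genes are also known to respond to glucocorticoids, low oxygen, oxidants and inflammatory cytokines. In brain, metallothioneins 1 and 2 are known mainly from astrocytes, and metallothionein 3 from neurons and astrocytes. The 7 genes described here were chosen by symbol from the 54532 gene IDs of the count table. They are the metallothionein genes Mt1, Mt2 and Mt3, the sensor gene Mtf1, the exporter gene Slc30a1 and the importer genes Slc39a10 and Slc39a14.

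RNA was sequenced from 6 tumours of G422, a mouse glioblastoma line, grown under the skin of Kunming mice, an outbred stock, labelled as untreated. In the shNgb group (3 tumours) the cells carried a lentiviral hairpin that is named for Ngb, the neuroglobin gene, and in the shVec group (3 tumours) they carried the vector. The series is titled as a knockdown, but its design text says the cells got Ngb, so shNgb is used here only as the label. The sources used here do not give the age or sex of the mice or whether each line is 1 clone. The cell line tag carries another number in every sample, while the titles and source names give G422 throughout. The tumours are described as independent, and the p-values measure the spread between them. A tumour also holds host cells, so fewer cells of a type and less RNA per cell cannot be told apart.

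Libraries held 19630319 to 25620667 reads. The targeted gene, Ngb, had 18, 19 and 11 reads in shNgb tumours, against 28, 23 and 13 in shVec tumours, and its groups overlapped (log2 fold change -0.59, 95% interval -1.55 to 0.37, edgeR adjusted p = 0.9997; -0.83 to -0.33 with 1 library left out). The glial label was checked against 7 neural progenitor and oligodendrocyte markers and 7 astrocyte markers. Nes, which encodes the intermediate filament nestin, averaged 414 ± 28.7 CPM in shNgb and 506 ± 35.3 CPM in shVec tumours (SD, n = 3 each; CPM stands for counts scaled to a common library size of the tested genes after TMM scaling). Sox2, a neural stem cell factor, averaged 17.2 ± 4.68 and 18.6 ± 2.29 CPM, in the same order of groups. Cspg4, a proteoglycan gene of glial progenitors and pericytes, averaged 278 ± 26.3 CPM in shNgb and 305 ± 19.4 CPM in shVec, and Pdgfra, shared by glial progenitors and fibroblasts, 57.7 ± 16.8 and 43.3 ± 5.37 CPM. Olig1, Olig2 and Aqp4 had 0 reads in all 6 libraries. Gfap had 10 reads in the shNgb and 5 in the shVec libraries, and Sox10 had 6 and 3. The astrocyte markers Aldoc and Aldh1l1 did have reads. Aldoc averaged 9.71 ± 2.79 CPM in shNgb and 12.6 ± 2.75 CPM in shVec, and Aldh1l1 3.67 ± 1.38 and 5.01 ± 5.03 CPM.

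The coding sequences of the metallothionein genes are shown because their likeness and their neighbours bear on what a read count can measure. All 3 lie on the plus strand of chromosome 8 in the GENCODE M21 annotation (build GRCm38), with Mt4 beside them, and the 4 genes span 43131 bases. Mt3 (ENSMUSG00000031760) lies at 94152607 to 94154146, Mt2 (ENSMUSG00000031762) at 94172664 to 94173568 and Mt1 (ENSMUSG00000031765) at 94179082 to 94180327. Their coding sequences are given 5′ to 3′ from the GENCODE transcripts. Capitals in Mt1 mark bases that differ from Mt2, and capitals in Mt2 and Mt3 mark bases that differ from, or have no partner in, Mt1.
Mt1: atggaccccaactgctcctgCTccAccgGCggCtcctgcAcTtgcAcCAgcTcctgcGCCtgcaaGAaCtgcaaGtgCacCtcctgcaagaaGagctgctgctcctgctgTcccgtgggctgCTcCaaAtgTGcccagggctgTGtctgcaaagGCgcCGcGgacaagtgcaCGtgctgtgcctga
Mt2: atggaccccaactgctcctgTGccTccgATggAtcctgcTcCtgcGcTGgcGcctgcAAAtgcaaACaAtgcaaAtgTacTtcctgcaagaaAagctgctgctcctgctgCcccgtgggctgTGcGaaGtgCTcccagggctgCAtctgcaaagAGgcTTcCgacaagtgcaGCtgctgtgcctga
Mt3: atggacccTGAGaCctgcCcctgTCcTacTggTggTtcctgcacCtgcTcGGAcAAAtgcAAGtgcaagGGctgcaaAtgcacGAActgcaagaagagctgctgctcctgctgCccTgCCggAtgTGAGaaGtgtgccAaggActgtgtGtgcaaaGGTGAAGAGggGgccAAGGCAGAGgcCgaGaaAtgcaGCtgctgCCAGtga
Mt1 and Mt2 differed at 38 of 186 coding bases (79.6% identity), and their longest identical run was 20 bases. Mt1 and Mt3 matched in 66.2% of 207 aligned columns. None of the 1278 distinct 36-base words of the Mt1 transcripts, and none of the 1065 of Mt3, occurred on either strand in annotated transcripts of another gene. In Mt2, 310 of 568 such words (54.6%) did, all of them in Gm45774, an annotated antisense gene on the other strand.

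**Figure D1:**
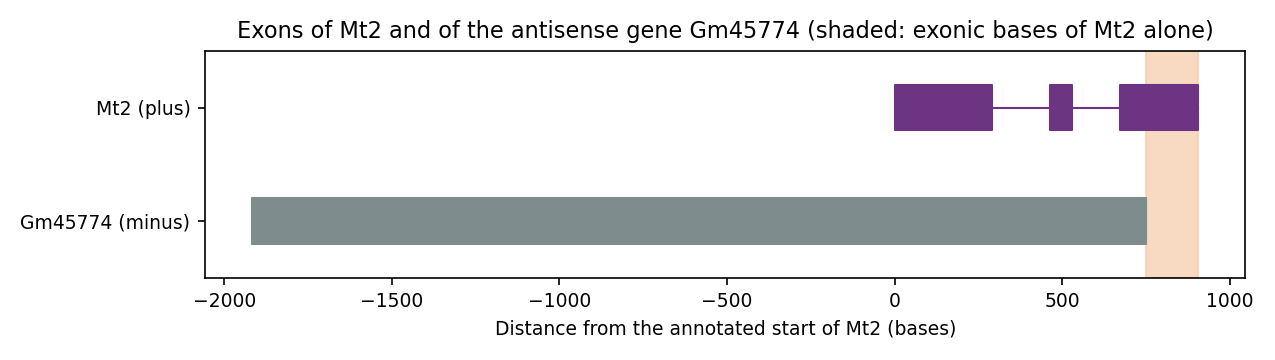
Exon blocks of Mt2 and of the antisense gene Gm45774, drawn to scale as distance in bases from the annotated start of Mt2. The single exon of Gm45774 covers the first and second blocks of Mt2 and part of the last, and the shaded 156 exonic bases at the 3′ end belong to Mt2 alone.

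The antisense gene limits what the Mt2 count measures. Of the 588 exonic bases of Mt2, 432 (73.5%) lie in the exon of Gm45774, which leaves 156 bases at the 3′ end. The Illumina TruSeq RNA kit named in the labels is known not to mark strand. Across the table, 69 annotated genes of at least 200 bases were found to lie wholly inside exons of a gene with 50 CPM or more, 57 on the opposite strand of that gene and 12 on the same strand. All 57 and all 12 were listed with 0 reads in all 6 libraries, so the table holds no read for a gene whose exons are all shared in this way. Gm45774 itself had 11, 0 and 9 reads in shNgb libraries, against 8, 8 and 6 in shVec libraries. The Mt2 count is thus uncertain as a measure of its transcript level. If reads in its shared bases were left out in the same way, the count is too low, which was not tested. Smaller parts are shared in Mtf1, with 721 of 8907 exonic bases in exons of 1110065P20Rik, and in Slc30a1, with 468 of 5244 in 1700034H15Rik. For Mt1, Mt3, Slc39a10 and Slc39a14 the annotation has no exonic base shared with another gene.

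Promoter sequence upstream of Mt1 and Mt2 is shown because both genes are textbook MTF1 targets and their read counts differ widely here. Each sequence is the 250 bases before the RefSeq start (build GRCm38.p6, plus strand, 5′ to 3′), at chr8:94178839-94179088 for Mt1 and chr8:94172368-94172617 for Mt2. Capitals mark matches to the core of the metal response element, searched as TGCACNC and TGCGCNC on both strands.
Mt1: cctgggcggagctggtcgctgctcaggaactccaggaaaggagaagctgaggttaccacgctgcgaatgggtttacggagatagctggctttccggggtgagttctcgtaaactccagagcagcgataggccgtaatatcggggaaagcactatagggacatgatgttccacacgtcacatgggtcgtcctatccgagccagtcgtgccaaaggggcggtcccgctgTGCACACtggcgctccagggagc
Mt2: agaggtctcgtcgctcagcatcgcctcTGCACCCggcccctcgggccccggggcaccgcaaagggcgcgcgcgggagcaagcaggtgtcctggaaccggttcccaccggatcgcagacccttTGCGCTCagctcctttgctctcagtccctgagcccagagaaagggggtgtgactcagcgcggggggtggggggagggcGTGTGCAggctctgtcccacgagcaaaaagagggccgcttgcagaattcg
Of 32851 such windows in the RefSeq table, 21.4% held at least 1 match. Mt2 held 3 matches, a number reached by 1.26% of windows, and Mt1 and Slc30a1 held 1 each. The windows of Mt3 and Mtf1 and both windows of Slc39a10 held 0 matches, and Slc39a14 has no window in the table. The annotated exon of Mt1 before its start codon (229 bases) held 4 further matches and a TATAAA run beginning at base 129, and that of Mt2 (184 bases) held 3 matches and a TATAAA run at base 90. That of Mt3 (193 bases) held 3 matches and a TATAAA run at base 107. The annotated starts of all 3 genes thus lie upstream of a TATA-like run and of further matches. The window counts leave those matches out, so 3 against 1 in the windows does not compare the whole promoters of Mt2 and Mt1. The core of the hypoxia response element, searched as ACGTG and GCGTG on both strands, occurred in 38.6% of all windows. It occurred 2 times in the Mt1 window and 1 time each in the Mt2 and Slc30a1 windows, and the match in Mt2 overlaps a metal response element match. These matches are letters in a window and were not tested as binding sites.

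Mt1 had by far the most counted reads of the metallothionein genes in these tumours, with the Mt2 count limited as described above. It had 6561, 5267 and 4807 reads in shNgb libraries, against 5390, 6263 and 4663 in shVec libraries. On the deposited FPKM scale, which divides by gene length, it stood at 253, 172 and 146 in shNgb and at 196, 252 and 190 in shVec tumours, above 98.7% of the tested genes. The highest Mt1 level of each group was the same within rounding (316 CPM in shNgb replicate 1 and 316 CPM in shVec replicate 2), and the lowest was in shNgb replicate 3 (184 CPM). The groups overlapped, with means of 239 ± 68.9 CPM in shNgb and 266 ± 43.0 CPM in shVec (SD, n = 3 each). Its log2 difference was -0.16 (fitted log2 fold change, SE 0.21, 95% interval -0.65 to 0.34, edgeR adjusted p = 0.9997). In linear terms the bounds are 0.635 and 1.27 times the shVec level, and a difference between them was not detectable with this spread. When shNgb replicate 1 was left out, Mt1 had a log2 fold change of -0.41, an unadjusted edgeR p of 0.0205 and an adjusted p of 0.846. The value was -0.0003 when shNgb replicate 3 was left out and -0.0148 when shVec replicate 2 was.

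Mt2, the neighbour of Mt1 and usually induced with it, was counted with few reads. It had 45, 19 and 35 reads in shNgb libraries, against 27, 73 and 24 in shVec libraries. The tumours of a group differed by more than counting error. In shNgb the exact 95% Poisson interval was 32.8 to 60.2 around the 45 reads of replicate 1 and 11.4 to 29.7 around the 19 of replicate 2. In shVec it was 57.2 to 91.8 around the 73 reads of replicate 2, the highest count, and 15.4 to 35.7 around the 24 of replicate 3 (counting error only). The tumour of shVec replicate 2 also had the highest summed skeletal muscle markers, 20.7 CPM over 6 genes. The other tumours had 5.98 to 7.20 CPM in shNgb and 7.38 to 7.48 CPM in shVec. The lowest muscle sum, 5.98 CPM, was that of shNgb replicate 1, the tumour next highest in Mt2. In shVec replicate 2, Acta1 gave 11.1 of the 20.7 CPM, while Tnnt3 was lower (4.03 CPM) than in shVec replicate 1 (6.47 CPM). The sums of glucocorticoid-induced genes (623 CPM) and of acute phase genes (262.5 CPM) were also highest in shVec replicate 2. So were those of zinc exporters (759 CPM), of MTF1 targets outside the list (544 CPM) and, narrowly, of hypoxia-induced genes (5860 CPM). The part of muscle or of any of these sums in the Mt2 value was not tested. Means were 1.43 ± 0.70 CPM in shNgb and 2.04 ± 1.42 CPM in shVec (SD, n = 3 each), with a log2 fold change of -0.52 (SE 0.54, 95% interval -1.74 to 0.71, edgeR adjusted p = 0.9997). Without shVec replicate 2 it turned to 0.21.

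The gap between the counts of the 2 genes was wide in every tumour. Mt1 had 146, 277 and 137 times the CPM of Mt2 in shNgb tumours, against 200, 85.8 and 194 times in shVec tumours. The log2 ratio of Mt2 to Mt1, a quantity free of library scaling, averaged -7.47 ± 0.56 in shNgb and -7.22 ± 0.69 in shVec (SD, n = 3 each; difference -0.25, two-sided exact permutation p = 0.7, where 3 against 3 allows no p under 0.1). Per kilobase of the exonic bases that each gene shares with no other, Mt2 averaged 11.1 ± 6.75 CPM and Mt1 203 ± 42.9 CPM over all 6 tumours (SD), and Mt1 was higher by 17.2 to 34.7 times in shNgb and by 10.7 to 25 times in shVec tumours. For Mt1 the divisor was 1246 bases in 1 block, its whole annotated span, which takes in any intron of its spliced form. For Mt2 it was 156 bases of exon, so the 2 divisors are not alike. The part of the exon overlap in this gap was not tested beyond that division. Summing the reads of both genes gave a log2 fold change of -0.16, the same as for Mt1 alone. Mt2 made up only 0.36% (shNgb replicate 2) to 1.15% (shVec replicate 2) of the summed reads, so the sum could hardly differ from Mt1.

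Mt3, the brain metallothionein, was nearly absent from the reads. It had 1, 2 and 1 reads in shNgb libraries, against 1, 2 and 2 in shVec libraries, too few for the test, and no fold is given. Mt4, known from stratified epithelium and no member of the list, had 1 read in shNgb replicate 1 and 0 in each other library. Most astrocyte markers were scarce in the same libraries: 5 of 7 averaged under 1 CPM. The summed level of all 7 was 9.16 to 17.3 CPM in shNgb and 13.6 to 26.6 CPM in shVec tumours. Aldoc and Aldh1l1 made up most of that sum.

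**Figure D2:**
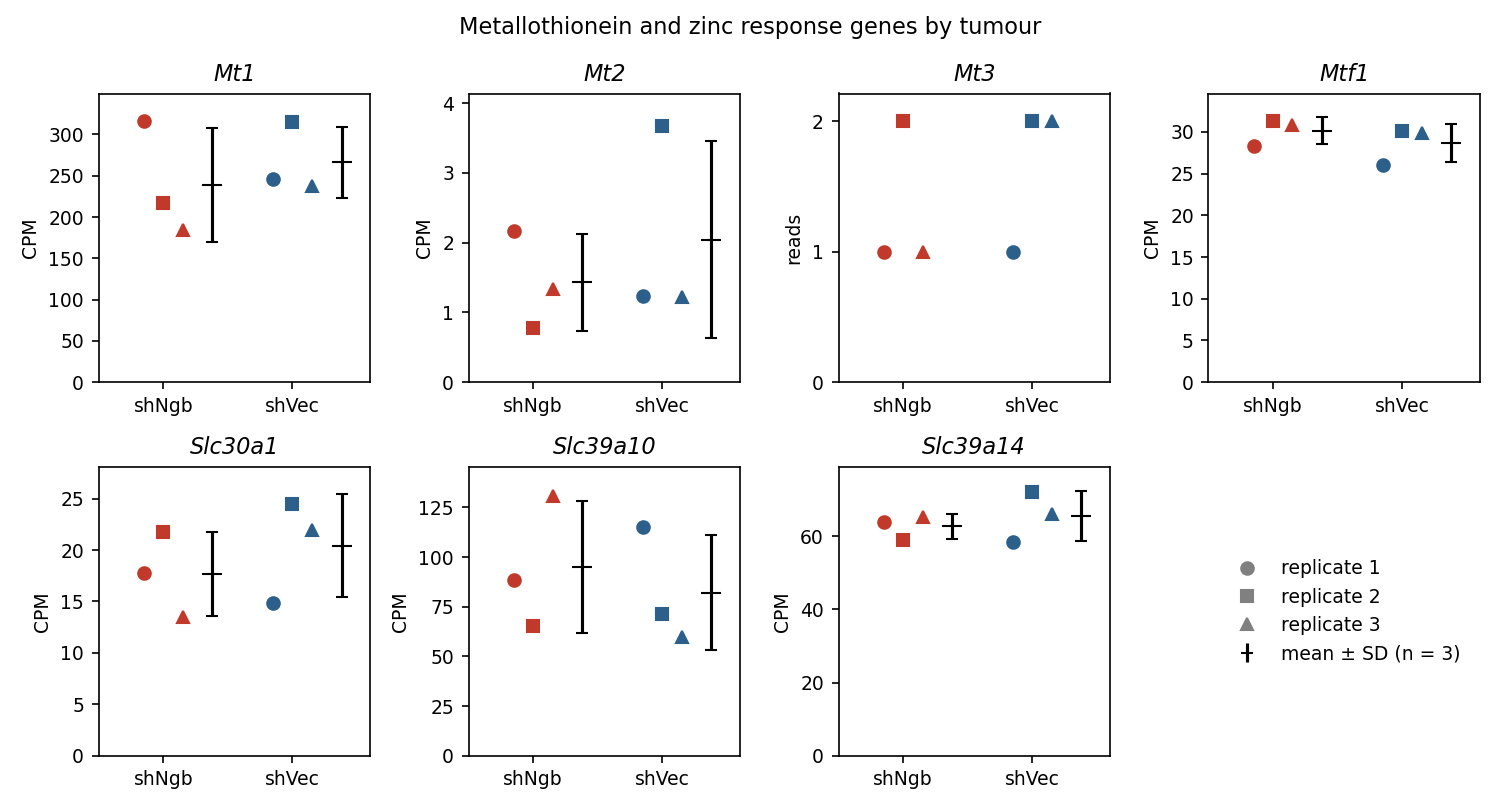
Level of each gene in each tumour, in CPM after TMM scaling (reads for Mt3), with shNgb left of shVec, a symbol for each replicate number, and bars for the group mean ± SD (n = 3). The groups overlap in every panel, the spread within a group is wide for Mt1, Mt2, Slc30a1 and Slc39a10 and narrow for Mtf1, and shVec replicate 2 is highest in Mt2.

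Mtf1, the zinc sensor (ENSMUSG00000028890, chromosome 4, 124802104 to 124849800, plus strand), had a small spread between tumours. It stood at 28.3, 31.3 and 30.8 CPM in shNgb tumours, against 26.0, 30.1 and 29.9 CPM in shVec tumours. Its highest value exceeded its lowest by 1.20 times, and the groups overlapped. The log2 fold change was 0.07 (SE 0.10, 95% interval -0.16 to 0.30, edgeR adjusted p = 0.9997), which bounds the fold between 0.896 and 1.24.

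Slc30a1 encodes ZnT1, the exporter of the plasma membrane, and lies on chromosome 1 (ENSMUSG00000037434, 191906767 to 191913247, plus strand). It stood at 17.8, 21.7 and 13.5 CPM in shNgb tumours, against 14.9, 24.4 and 22.0 CPM in shVec tumours. The lowest values were those of shNgb replicate 3 and shVec replicate 1, 1 in each group. The fitted log2 fold change of Slc30a1 was -0.21 (SE 0.23, 95% interval -0.72 to 0.31, edgeR adjusted p = 0.9997). Leaving out 1 library moved it between -0.40 (shVec replicate 1) and -0.05 (shNgb replicate 3).

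Slc39a10 encodes ZIP10, a zinc importer of the plasma membrane, and lies on chromosome 1 (ENSMUSG00000025986, 46807544 to 46892852, minus strand). It stood at 88.5, 65.1 and 131 CPM in shNgb tumours, against 115, 71.6 and 59.7 CPM in shVec tumours. The highest values were those of shNgb replicate 3 and shVec replicate 1, the tumours lowest in Slc30a1. The log2 fold change was 0.21 (SE 0.33, 95% interval -0.58 to 1.0, edgeR adjusted p = 0.9997), and without shNgb replicate 3 it turned to -0.10.

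Slc39a14 encodes ZIP14, an importer of zinc, manganese and non-transferrin iron known to be induced by interleukin-6, and lies on chromosome 14 (ENSMUSG00000022094, 70303469 to 70351425, minus strand). It stood at 63.9, 58.9 and 65.4 CPM in shNgb tumours, against 58.4, 72.1 and 66.1 CPM in shVec tumours. Its range within shNgb lay inside that of shVec. The log2 fold change was -0.06 (SE 0.10, 95% interval -0.28 to 0.16, edgeR adjusted p = 0.9997), and without shVec replicate 2 it turned to 0.01.

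In all, 6 of the 7 genes passed the filter on low counts, 4 with a negative and 2 with a positive log2 fold change. Their median was -0.11, beside 0.0026 over all 15203 genes tested. EdgeR called 0 of the 6 at an adjusted p under 0.05, as it called 0 of all genes (0%). An unadjusted p under 0.05 was reached by 0 of the 6 and by 2.58% of all genes (1.35% higher and 1.22% lower in shNgb). The groups did not overlap in 0 of the 6 and in 7.10% of all genes (3.67% higher and 3.43% lower in shNgb). DESeq2 and limma-voom also called 0 of these genes and gave none an unadjusted p under 0.05.

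**Figure D3:**
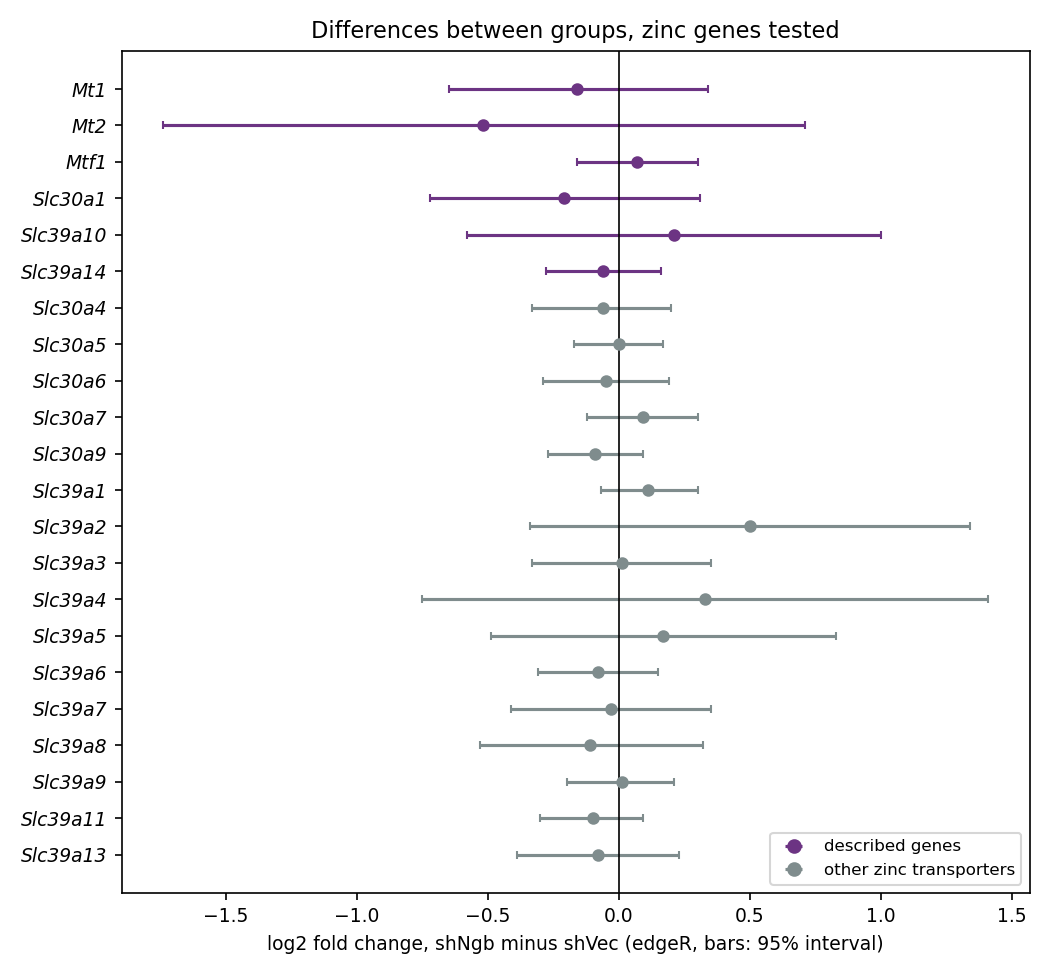
Log2 fold change of shNgb minus shVec with its 95% interval from edgeR, for the 6 tested genes of the list and the other 16 tested zinc transporter genes. Every interval includes 0, and the intervals of Mt2, Slc39a10 and the scarce importers Slc39a2 and Slc39a4 are the widest.

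The genes differed in how much they varied between tumours of one group. The within-group SD of log2 CPM was 0.50 for Slc39a10, larger than in 99.4% of the 1000 tested genes nearest to it in level. It was 0.32 for Mt1 (97.6%), 0.36 for Slc30a1 (91.9%) and 0.79 for Mt2 (91.4%), each against its own 1000 neighbours. Slc39a14, at 0.12 (54.7%), and Mtf1, at 0.10 (25%), were ordinary for their level. These shares describe the spread and are no test.

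Slc30a1 and Slc39a10, an exporter and an importer, ran in opposite directions over the 6 tumours. Pearson's r of their log2 CPM was -0.94 (exact permutation p = 0.0111) and Spearman's rho -0.83 (exact permutation p = 0.0583). Adjusted over the 15 pairs of tested genes, these permutation p-values were 0.167 and 0.875, so the relation failed the correction. It was also -0.94 after removal of the group means, and -0.68 without shNgb replicate 3 and shVec replicate 1, the 2 tumours farthest from the median of Slc30a1. Mt1 and Mt2 had an r of 0.77 (exact permutation p = 0.0722, adjusted 0.361) and a rho of 0.60 (exact permutation p = 0.242, adjusted 0.906), and Mt2 and Slc39a14 an r of 0.80 (exact permutation p = 0.0611, adjusted 0.361) and a rho of 0.49 (exact permutation p = 0.356, adjusted 0.919). Without the 2 tumours farthest in Mt1 the first of these was 1.0 over 4 points, and without the 2 farthest in Mt2 the second was 0.58. Mt1 and Mtf1 had an r of -0.35 (exact permutation p = 0.501, adjusted 0.684).

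**Figure D4:**
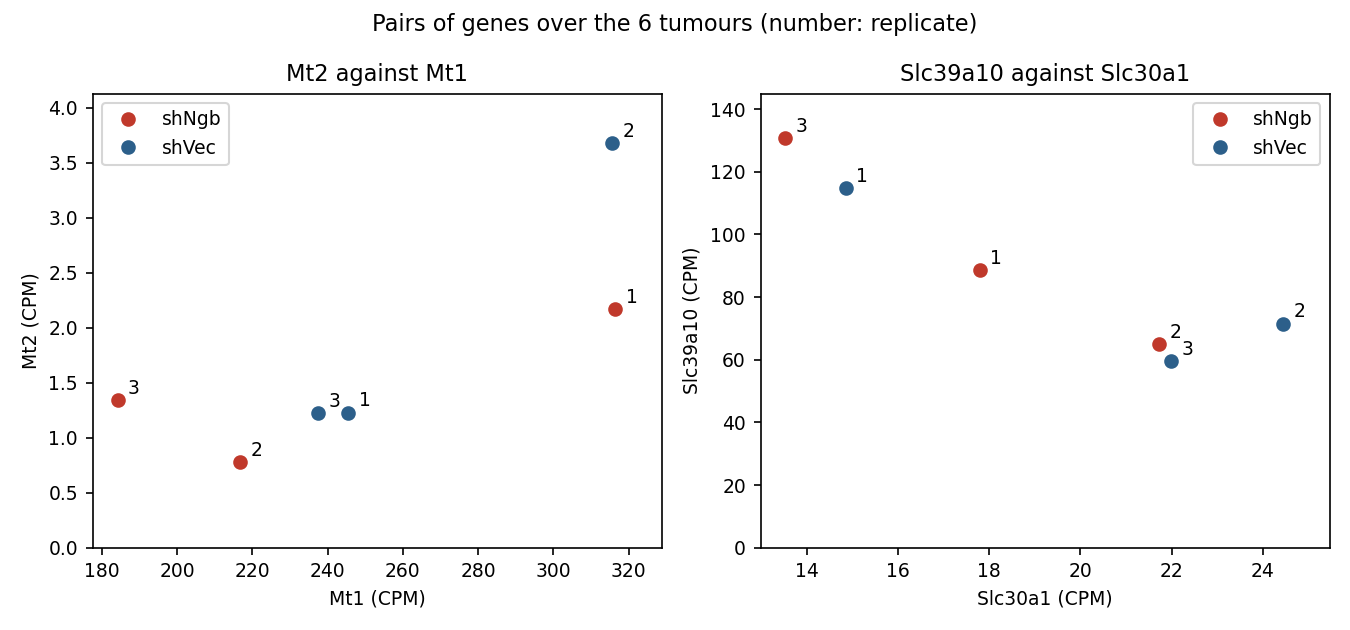
Level of Mt2 against Mt1 (left) and of Slc39a10 against Slc30a1 (right) in CPM, 1 point per tumour with its replicate number. Mt2 is highest in shVec replicate 2 and next in shNgb replicate 1, the 2 tumours highest in Mt1, and shNgb replicate 3 and shVec replicate 1 are lowest in Slc30a1 and highest in Slc39a10.

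The genes whose pattern over the 6 tumours was most like each of these were named by the highest Pearson r of log2 CPM among about 9910 genes with a mean of at least 5 CPM. With 6 points and so many genes, values near 1 are common, and they are given as a description. For Slc30a1 they were Atrnl1 (0.991), Brd1 (0.990) and Slc30a4 (0.987), the last of them a zinc transporter of intracellular vesicles. For Slc39a10 they were Nxn (0.992), which encodes the redox protein nucleoredoxin, Lrrc47 (0.992) and the phospholipase gene Plcb3 (0.989). Mt1 was most like Cops2 (0.993), Gbf1 (0.990) and Ppp2ca (0.982), and Mt2 most like Mindy3 (0.996), Eif1a (0.994) and Mrpl40 (0.983). Mtf1 was most like Mtx3, Esm1 and Aagab (0.973 each), and Slc39a14 most like Fer (0.995), Atp13a3 (0.992) and Spata5 (0.992).

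Beside the list, 6 of 10 zinc exporter genes (Slc30a family) and 13 of 14 zinc importer genes (Slc39a family) passed the filter, with Slc30a1, Slc39a10 and Slc39a14 among them. EdgeR called 0 of them in either direction, with 0 at an unadjusted p under 0.05, and the groups overlapped in all 19. The median log2 fold change was -0.06 for exporters and 0.01 for importers, beside 0.0026 over all genes tested. The importers of smallest p besides the members were Slc39a1, a plasma membrane importer, at 125 ± 5.03 CPM in shNgb and 115 ± 8.59 CPM in shVec, Slc39a2, at 1.27 ± 0.39 and 0.90 ± 0.20 CPM, and Slc39a11, at 44.7 ± 1.53 and 48.0 ± 3.23 CPM, each with shNgb before shVec (SD, n = 3). Among exporters these were Slc30a9, at 170 ± 13.9 CPM in shNgb and 181 ± 2.86 CPM in shVec, and Slc30a7, a transporter into the secretory pathway, at 61.0 ± 1.65 CPM in shNgb and 57.2 ± 5.98 CPM in shVec.

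Per gene length, Mt1 stood above every zinc transporter. Over all 6 tumours it ranged from 146 to 253 FPKM, and the next levels, chosen after their values were seen, were Slc30a4 (52.2 to 68.1 FPKM), Slc39a1 (44.4 to 54.2 FPKM) and Slc39a6 (28.6 to 35.6 FPKM). Slc39a10 (9.74 to 21.2 FPKM) overlapped Slc30a9 (12.4 to 14.8 FPKM). Slc39a14 lay between 5.51 and 6.80 FPKM. Slc30a1 (2.56 to 4.64 FPKM), Mtf1 (2.91 to 3.47 FPKM) and Mt2 (1.31 to 6.22 FPKM) overlapped each other, and Mt2 also overlapped Slc39a14. The FPKM of Mt2 divides by all 588 exonic bases, shared ones included, and that of Mt1 by the 1246 bases of its whole annotated span. The exporter genes Slc30a2, Slc30a8 and Slc30a10, which are known from mammary gland, pancreatic islets and liver, had 0 reads in all 6 libraries, and Slc30a3 and Slc39a12 had 1 read each.

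**Figure D5:**
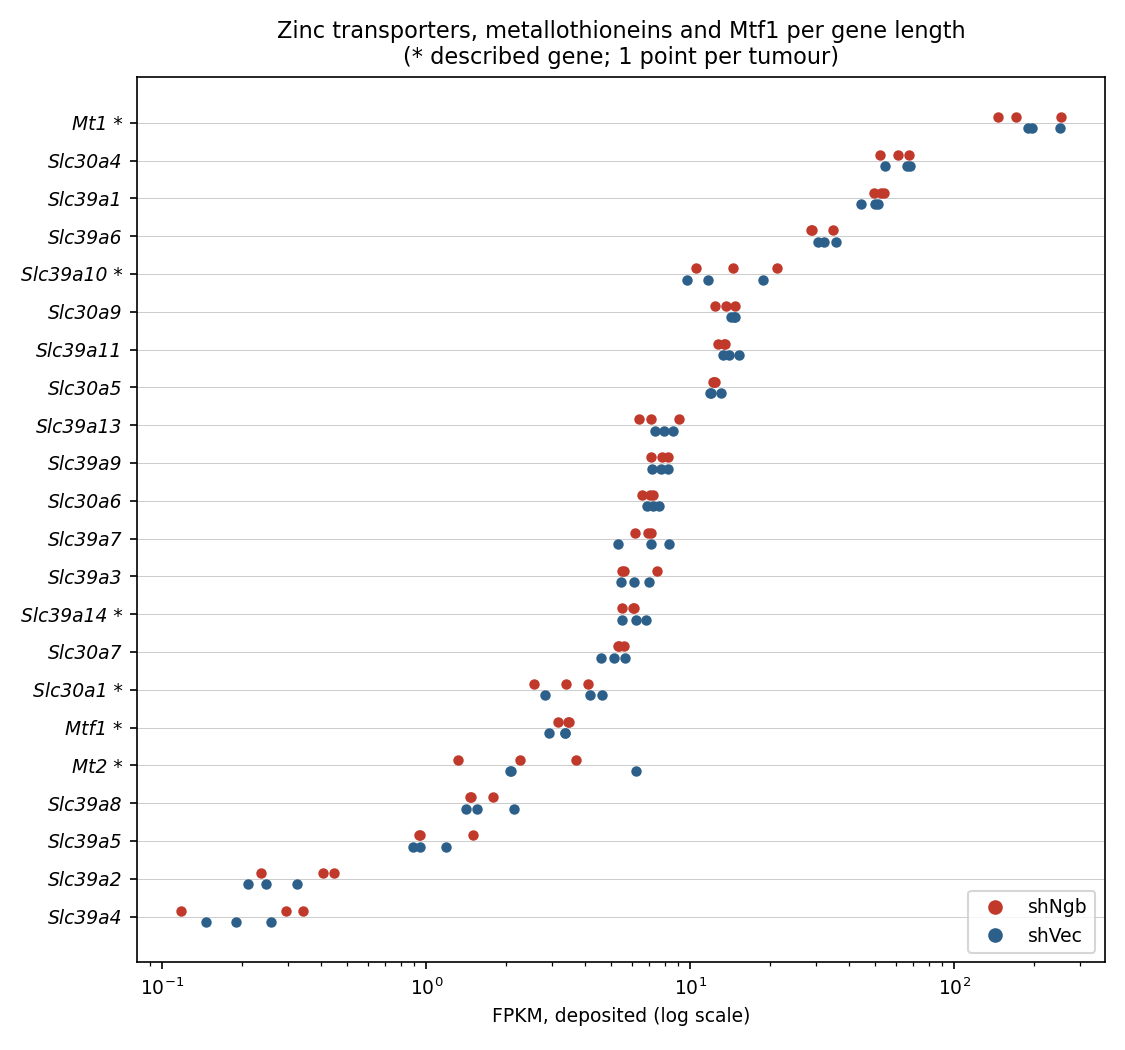
Deposited FPKM on a log axis for the tested zinc transporters, metallothioneins and Mtf1, 1 point per tumour, with shNgb drawn above shVec in each row. Mt1 stands highest, at 146 to 253 FPKM, and Mt2, Mtf1 and Slc30a1 share a range below 7 FPKM.

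MTF1 target genes outside the list and copper genes gave no call either. Of 8 further genes described as MTF1 targets, 7 were tested and edgeR called 0, with 0 at an unadjusted p under 0.05 and a median of -0.06. Their summed level was 450, 432 and 334 CPM in shNgb tumours, against 456, 544 and 533 CPM in shVec tumours, without overlap. Taken singly, 1 of the 7 tested genes had groups without overlap, lower in shNgb, beside 3.43% of all genes. That gene, Ndrg1, is part of the sum, so the separation of the sums does not show a difference in the other genes. The groups overlapped in every other tested gene of this list. The exception in level was Ndrg1, also a hypoxia-induced gene, at 176, 106 and 57.8 CPM in shNgb tumours, against 193, 182 and 201 CPM in shVec tumours. Its groups did not overlap, with a log2 fold change of -0.76 (SE 0.37, edgeR adjusted p = 0.9997). Cited2 averaged 130 ± 39.6 CPM in shNgb and 153 ± 34.0 CPM in shVec, and the angiogenic growth factor gene Pgf 3.39 ± 1.58 and 4.18 ± 0.85 CPM. Of 11 genes of copper handling (Mt4 among them), 9 were tested and edgeR called 0, with 8 positive log2 fold changes and a median of 0.03. Their summed level was 552, 544 and 543 CPM in shNgb tumours, against 535, 532 and 519 CPM in shVec tumours, also without overlap but by a narrow margin. Taken singly, 0 of the 9 tested genes had groups without overlap, beside 7.10% of all genes. The copper importer gene Slc31a1 averaged 85.5 ± 9.13 CPM in shNgb and 79.4 ± 5.87 CPM in shVec, and its relative Slc31a2 13.7 ± 2.69 and 10.9 ± 2.78 CPM. Commd1 averaged 26.4 ± 3.08 and 24.7 ± 2.68 CPM (SD, n = 3 each).

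Genes of other signals known to act on metallothioneins were read in the same fit. All 17 hypoxia-induced genes had a negative log2 fold change (median -0.49), while edgeR called 0. An unadjusted edgeR p under 0.05 was reached by 7 of them, beside 1.22% of all genes in that direction. In 10, all shNgb values lay below all shVec values, beside 3.43% of all genes. Their summed level was 5376, 4324 and 3668 CPM in shNgb tumours, against 5855, 5860 and 5839 CPM in shVec tumours. Mt1 stood in the same order in the shNgb tumours (316, 217 and 184 CPM). So did the summed fibroblast markers (2443, 2050 and 1171 CPM), while T and NK cell markers (3.86, 16.1 and 34.2 CPM) and macrophage markers ran in the reverse order. In shVec tumours Mt1 stood at 245.5, 315.6 and 237.4 CPM, in the order of the hypoxia sums, which differed little there. The shVec fibroblast sums (2015, 1741 and 1820 CPM) were lowest where Mt1 was highest. Macrophage markers (124.6, 264.8 and 205.3 CPM) and T and NK cell markers (5.06, 15.9 and 3.72 CPM) were highest in that same shVec tumour. The part of hypoxia or of these cells in the Mt1 level was not tested. Hk2, which starts glycolysis, averaged 83.7 ± 6.58 CPM in shNgb and 112 ± 9.72 CPM in shVec, Ero1l 208 ± 49.1 and 317 ± 32.2 CPM, and Pgk1 1183 ± 145 and 1418 ± 57.1 CPM (SD, n = 3 each).

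Of 8 tested glucocorticoid-induced genes, edgeR called 0, and the median was -0.13, beside 0.0026 over all genes tested. An unadjusted edgeR p under 0.05 was reached by 1 of the 8, lower in shNgb, beside 1.22% of all genes in that direction. The one was the phosphatase gene Dusp1, at 8.02 ± 1.83 CPM in shNgb and 13.6 ± 4.03 CPM in shVec. Klf9 averaged 52.4 ± 9.21 and 62.8 ± 1.63 CPM, and Errfi1 170 ± 55.3 and 229 ± 35.4 CPM, with shNgb before shVec (SD, n = 3 each). Of 7 tested NRF2-induced genes, edgeR called 0, with 0 at an unadjusted p under 0.05 and a median of -0.01, and the glutathione synthesis gene Gclm averaged 41.0 ± 4.66 CPM in shNgb and 37.3 ± 4.13 CPM in shVec. Slc7a11, the cystine importer, averaged 20.2 ± 8.41 and 22.9 ± 6.76 CPM, and G6pdx 65.7 ± 11.6 and 62.4 ± 9.25 CPM. Of 6 tested acute phase and interleukin-6 genes, edgeR called 0, with 0 at an unadjusted p under 0.05 and a median of 0.08, and Cebpb averaged 47.1 ± 9.80 CPM in shNgb and 55.6 ± 8.17 CPM in shVec. Stat3, which carries the interleukin-6 signal, averaged 78.6 ± 5.75 and 72.7 ± 9.58 CPM, and Il1b 4.30 ± 0.81 and 3.41 ± 2.24 CPM.

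Host cells could add to the counts of these genes. The summed level of 9 macrophage markers was 165, 296 and 365 CPM in shNgb tumours, against 125, 265 and 205 CPM in shVec tumours. All 9 macrophage markers and all 8 tested T and NK cell markers had a positive log2 fold change, with 0 called by edgeR and 0 at an unadjusted p under 0.05. The sum of 7 fibroblast markers ran from 1171 to 2443 CPM in shNgb and from 1741 to 2015 CPM in shVec. Col3a1 made up most of that sum and had a negative log2 fold change, while the other 5 tested fibroblast markers had positive ones and edgeR called 0. Col1a1 averaged 281 ± 72.1 CPM in shNgb and 155 ± 36.03 CPM in shVec, without overlap (edgeR unadjusted p = 0.0076, adjusted p = 0.9997), and DESeq2 called it. Col1a2 averaged 176 ± 63.2 CPM in shNgb and 90.5 ± 24.9 CPM in shVec, with overlap (edgeR unadjusted p = 0.0185, adjusted p = 0.9997). Both collagen genes were chosen after their values were seen. Neutrophil markers summed to 2.71 to 11.7 CPM in shNgb and 2.04 to 3.63 CPM in shVec, T and NK cell markers to 3.86 to 34.2 and 3.72 to 15.9 CPM, and endothelial markers to 47.6 to 62.0 and 54.1 to 57.4 CPM. Of the 2 tested neutrophil markers, S100a9 overlapped between groups and Csf3r did not, beside 3.67% of all genes higher without overlap. Csf3r averaged 3.55 ± 1.15 CPM in shNgb and 1.38 ± 0.31 CPM in shVec (edgeR unadjusted p = 0.0029, adjusted p = 0.9997), and was also chosen after its values were seen. Adipocyte markers stayed under 2.61 CPM and keratinocyte markers under 6.76 CPM in every library, and neuron markers summed to 11.5 to 26.9 CPM in shNgb and 11.9 to 17.8 CPM in shVec. The part of host cells in the members' levels was not tested.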

How the data were processed

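Reads per Ensembl gene ID were deposited by the authors as whole-number counts, not normalized. The authors also deposited FPKM per sample, per the file headers. Per the labels' protocols, Trizol RNA went into Illumina TruSeq RNA libraries, a kit that by background knowledge does not mark strand. The submitters' processing notes list Bowtie 0.12.2, mm8 and mm10, with no role for each. The sources used here name no counting tool or annotation. GENCODE M21 (GRCm38) named 54409 of 54532 IDs. The exonic length of each member in it lay within the range of lengths implied by counts and FPKM.

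Counts were compared with edgeR 4.0.16 (R 4.3.3): default expression filter, TMM scaling, robust quasi-likelihood F-test and Benjamini-Hochberg adjustment over all 15203 genes tested, with a threshold of 0.05. The procedure was checked on simulated counts. Standard errors come from the F statistic, and intervals are 95%. Levels between genes use the deposited FPKM. Correlations use log2 CPM with a prior count of 2. Replicate numbers and groups come from the sample titles.

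The members and lists were chosen with earlier results of these data known. Named genes are the members, Ngb, the 3 of smallest p per pathway list, the 3 of highest r per member, and marker genes. The fit was repeated with RLE or upper quartile scaling, no filter, a stricter filter, DESeq2 1.42.0, limma-voom (limma 3.58.1), a replicate block and leaving out each library. Sequences are from GENCODE M21 and RefSeq (GRCm38.p6).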

Additional observations from a re-analysis of the deposited data

How the results depend on the processing

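Over 7 alternatives of scaling, filter, tool and block, the log2 fold changes of Mt1, Mt2, Slc30a1, Slc39a10, Slc39a14, Mtf1, Ngb and the Mt1 and Mt2 sum kept their direction and had no adjusted p under 0.05. The sum holds nearly only Mt1 reads and is no separate result. Ngb had no value under the strict filter. Mt3 was fitted only where no filter was used (edgeR without it, and DESeq2) and is given no fold. With 1 library left out, Mt2 ran from -0.94 to 0.21, Slc39a10 from -0.10 to 0.53, Slc39a14 from -0.14 to 0.0111, and the difference in the log2 ratio of Mt2 to Mt1 from -0.46 to 0.15 (0.08 without shNgb replicate 2, 0.15 without shVec replicate 2). The median log2 fold change ran from -0.0639 to 0.0899 for importers, -0.13 to 0.0079 for MTF1 targets and 0.0274 to 0.10 for copper genes, which was 0.0499 with upper quartile scaling and 0.078 with limma-voom. Of all genes, 3 were called without the filter (Ppp1r15a, Klf4 and Nlrp1c-ps), 5 by DESeq2 (Hmgn2, Rpl17-ps10, Ppp1r15a, Klf4 and Col1a1) and 1 with the replicate block (Rpl17-ps10), named after their values were seen. Without the filter 832 genes of 27834 had an unadjusted p under 0.05, against 2.58% of 15203 with it, and with 1 library left out 216 to 784 had one. Groups did not overlap in 1807 genes without the filter, which DESeq2 also ran without, against 1079 with it, and in 1927 to 3086 genes with 1 library left out, where fewer values have to separate. Same-numbered tumours shared only a number: their deviations from the group means correlated at 0.257, -0.145 and -0.099 across genes. The block changed the call of 0 of the members, with a log2 fold change of -0.18 for Mt1 and -0.40 for Mt2. Depth limits Mt2 (19 to 73 reads) and Mt3 (1 or 2 reads).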
